A study of Mus musculus with 6 samples.

Results

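The 10 genes described here encode the cytoplasmic actins (Actb and Actg1), proteins that bind actin monomers or filaments (Tmsb4x, Pfn1, Cfl1, Coro1a, Capg, Lcp1 and Lsp1) and the intermediate filament protein vimentin (Vim). They were chosen by symbol, and each of the 10 matched 1 of the 36811 rows of the table by its Ensembl identifier. RNA of regulatory T cells (Treg) sorted from mouse spleen was sequenced in 6 libraries from C57BL/6 mice 18 to 21 weeks old. In the 3 libraries labelled cKO the mice were Bach2fl/fl Foxp3EGFP-Cre-ERT2, with floxed alleles of the transcriptional repressor Bach2, and in the 3 labelled WT they were Bach2+/+ Foxp3EGFP-Cre-ERT2. Both groups therefore carry EGFP and the tamoxifen-dependent recombinase Cre-ERT2 at Foxp3, the gene of the factor that defines Treg, so that recombination is limited to cells that express Foxp3. A tamoxifen schedule is not given in the sources used here, and the labels do not say whether each library is a separate animal, so the tests reflect only how far these libraries vary, which may be technical.

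Actin cycles between free monomers and filaments. Thymosin beta holds monomers in reserve, profilin delivers them to the growing end, cofilin severs old filaments, capping proteins such as CapG close the growing end, and coronin and L-plastin act on the filament network. In T cells this network shapes migration and the contact with antigen-presenting cells, and vimentin filaments form a separate scaffold that lymphocytes rearrange as they polarise.

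Where 3 values are listed for a group, they are replicates 1, 2 and 3 in that order. The values are FPKM, fragments scaled for transcript length and library size. Levels of different genes can be compared only roughly, because a trend over coding length that differed between libraries remained in the values. Protein-coding genes under 500 coding bases had median log2 deviations from their own 6-library mean of 0.43 in cKO 2 and -0.34 in WT 2. Those of 2000 coding bases or more had -0.19 and 0.14. By the spacing of low values, the scale from fragments to FPKM lay between about 3270000 (WT 2) and 5410000 (cKO 2) fragments a library. It need not be the number sequenced. At that scale no fewer than 3230 fragments lay behind any value of the 10 genes, so counting error is small beside the spread between libraries. Bach2 (ENSMUSG00000040270) measured 7.88, 9.19 and 6.44 FPKM under cKO against 3.29, 8.25 and 4.80 under WT, 0.52 on the log2 scale (limma, Benjamini-Hochberg adjusted p = 0.925). This gene-level value does not check the deletion, and directions rest on the labels. Of the Treg and T cell markers all 10 were above the minimum for testing, with Foxp3 between 5.16 and 9.44 FPKM and Il2ra between 47.6 and 60.2 FPKM. Their summed values were 11896 to 14357 FPKM under cKO against 10270 to 11881 under WT, without overlap but with a narrow gap. Most of each sum was Cd3g (4943 to 7374 FPKM) and Trac (3264 to 4624 FPKM). Singly, groups did not overlap in 2 of the 10, Trac and Cd247, beside 6.96% of all genes higher without overlap. Foxp3, Il2ra, Ctla4 and Ikzf2 each overlapped. All 10 had a log2 difference above 0, beside 55.0% of all genes tested, with a median of 0.17 beside 0.03. None of the 10 had an adjusted or unadjusted p under 0.05 (limma). Markers of red cells and platelets, 3 of 12 of them tested, summed to 132, 251 and 279 FPKM under cKO against 34.9 to 113 under WT, without overlap. Nearly all of this was the globins Hba-a1 and Hba-a2. Hba-a2 (log2 difference 1.82, unadjusted p = 0.00402) and Alas2 (1.25, unadjusted p = 0.0184) did not pass (limma, adjusted p = 0.846 and 0.915). B cell markers summed to 1288 to 1969 FPKM under cKO against 1138 to 2308 under WT. The part of these markers in the results was not tested.

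These genes were among the most abundant messages of the cells. Tmsb4x and Actb ranked 1 and 2 among all protein-coding genes by mean FPKM, Coro1a ranked 12, Pfn1 13, Lsp1 47, Cfl1 79, Lcp1 115, Vim 120, Capg 134 and Actg1 152. These ranks pool the groups, and close neighbours changed places. Actb exceeded Tmsb4x in cKO 1, cKO 3 and WT 2, and mean Coro1a was above mean Pfn1 in WT (5537 against 4939 FPKM) and below it in cKO (5140 against 5326 FPKM). Together the 10 genes took 7.56%, 5.98% and 8.12% of the protein-coding FPKM sum under cKO against 7.02%, 7.52% and 6.99% under WT. The share was lowest in cKO 2 and highest in cKO 3, and the groups overlapped.

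**Figure D1:**
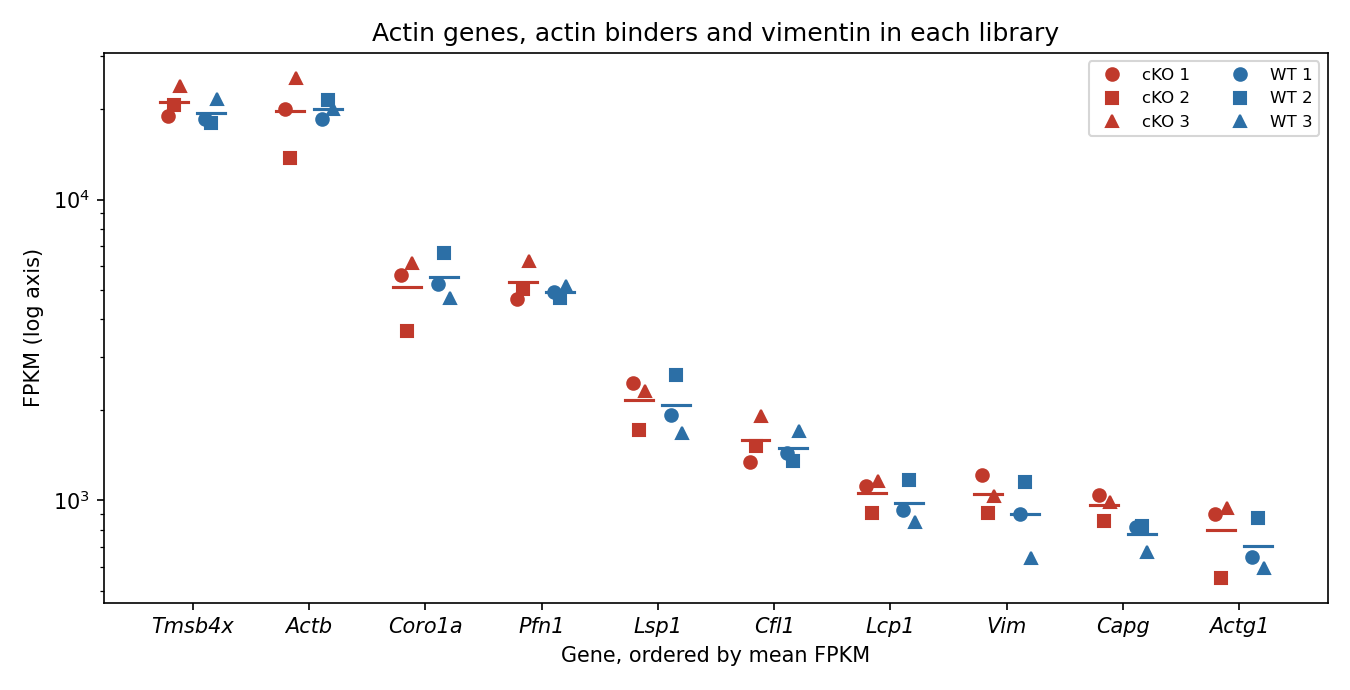
FPKM (log axis) of the 10 genes in each library, with circles, squares and triangles for replicates 1, 2 and 3 and a bar for the mean of each group. Capg is the gene whose cKO values (855 to 1042) all lie above its WT values (675 to 823), and in the other 9 genes the groups overlap.

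The actins differ in few residues as proteins but can be told apart as transcripts. Both have 1125 coding bases before the stop codon, of which 997 (88.6%) are identical when the GENCODE transcripts are set side by side. The first 60 coding bases are shown because they hold 9 of the differing positions, which are in capitals.
Actb: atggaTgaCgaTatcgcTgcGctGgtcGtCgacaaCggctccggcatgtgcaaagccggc
Actg1: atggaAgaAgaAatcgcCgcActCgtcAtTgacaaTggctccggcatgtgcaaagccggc
The shortest coding sequence among the 10 is that of Tmsb4x, and it is shown whole, from start to stop codon (in capitals), because coding length separates the genes in the pattern over libraries given further on.
Tmsb4x: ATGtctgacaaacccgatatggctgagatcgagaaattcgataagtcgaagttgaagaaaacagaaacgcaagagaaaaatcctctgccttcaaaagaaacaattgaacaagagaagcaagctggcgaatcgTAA

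Actb (ENSMUSG00000029580), the main actin of these cells, measured 20055, 13771 and 25388 FPKM under cKO against 18509, 21512 and 19945 under WT. The lowest and the highest of the 6 values are both libraries labelled cKO, and the WT values lie between them. Means were 19738 ± 5820 against 19989 ± 1500 FPKM (SD, n = 3 each), which gave on the log2 scale -0.06 with a 95% interval from -0.74 to 0.62 (adjusted p = 0.993 in limma). The sign depended on cKO 2 and on scaling, as the log2 difference was 0.18 without cKO replicate 2, 0.12 after quantile normalization, 0.10 with libraries scaled to equal sums and 0.23 with library quality weights.

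Actg1 (ENSMUSG00000062825), the gamma actin that is polymerised alongside the beta form, measured 903, 554 and 943 FPKM under cKO against 650, 875 and 596 under WT. As with Actb, cKO 2 was low, and here it was the lowest of all. The log2 difference was 0.16 with an interval from -0.45 to 0.77 (limma, adjusted p = 0.963), or 0.40 with cKO replicate 2 left out and 0.02 with cKO replicate 3 left out. In every library Actb exceeded Actg1, by 22.2, 24.9 and 26.9 times under cKO against 28.5, 24.6 and 33.5 under WT. The log2 ratio of Actg1 to Actb, which library scaling leaves almost untouched, averaged -4.62 ± 0.139 in cKO and -4.84 ± 0.222 in WT (SD, n = 3 each), a difference of 0.22 (exact two-sided permutation test over 20 assignments, p = 0.3). The smallest p such a test allows is 0.1. Without WT replicate 3, which had the lowest ratio, the difference was 0.11, and it was 0.33 without WT replicate 2.

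The actin genes are known targets of serum response factor, whose binding site is the CArG box. RefSeq promoter windows (GRCm38.p6, 250 bases before to 50 after a start) were at hand for 8 of the 10 genes, in 10 windows. There was none for Actb and Lsp1, whose promoters were therefore not searched. The CArG box (a pair of C, a run of A or T, and a pair of G), which reads the same as a pattern on both strands, was found in 1 of these windows, that of Actg1, and in 535 of 32851 windows of all genes (1.63%). It lies 81 to 90 bases before the Actg1 start and is in capitals in the minus-strand stretch chr11:120348526-120348645 of GRCm38.p6, a different build from that of the FPKM values.
Actg1 promoter: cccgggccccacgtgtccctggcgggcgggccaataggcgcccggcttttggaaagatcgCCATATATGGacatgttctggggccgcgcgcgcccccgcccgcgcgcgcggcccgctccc
The match describes these letters and is not a measured binding site.

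The monomer binders were abundant, and none of them passed the test. Tmsb4x (ENSMUSG00000049775), the thymosin that sequesters monomers, measured 19003, 20690 and 23793 FPKM under cKO against 18572, 18022 and 21668 under WT. Replicate 3 was the highest library in both groups, and the groups overlapped. Its log2 difference was 0.12 with an interval from -0.41 to 0.65 (limma, adjusted p = 0.971). The size depended on the processing, as the value was 0.62 after quantile normalization, 0.28 with equal sums and 0.035 without cKO replicate 3. Pfn1 (ENSMUSG00000018293), profilin, measured 4678, 5064 and 6237 FPKM under cKO against 4926, 4715 and 5176 under WT. Only cKO 3 lay apart from the rest, and the log2 difference of 0.10 (limma, adjusted p = 0.971) was -0.020 without it. Cfl1 (ENSMUSG00000056201), the severing protein cofilin, measured 1345, 1521 and 1911 FPKM under cKO against 1439, 1349 and 1707 under WT. Within each group its libraries had the same order as those of Pfn1 and Tmsb4x, and its log2 difference of 0.08 (limma, adjusted p = 0.977) was -0.060 without cKO replicate 3. The intervals of Pfn1 (-0.33 to 0.53) and Cfl1 (-0.36 to 0.52) include changes in either direction. After removal of each library's trend over coding length, an alternative chosen after the data were seen, the log2 differences of Tmsb4x, Pfn1 and Cfl1 were -0.28, -0.083 and -0.075.

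Among the proteins that act on filaments, Capg stood apart in order but did not pass. Capg (ENSMUSG00000056737), a capping protein of the gelsolin family, measured 1042, 855 and 989 FPKM under cKO against 813, 823 and 675 under WT. Each cKO value lay above each WT value, with a gap from 823 in WT 2 to 855 in cKO 2. Means were 962 ± 96.7 against 770 ± 83.0 FPKM (SD, n = 3 each), a ratio of 1.25, or on the log2 scale 0.32 with a standard error of 0.149 and an interval from -0.04 to 0.68 (limma, adjusted p = 0.925). The unadjusted p was 0.0705. The log2 difference lay between 0.23 (without WT replicate 3) and 0.48 (equal sums) over 18 alternatives and did not pass in any of them. It was 0.28 after the coding-length correction (limma, adjusted p = 0.835).

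Coro1a (ENSMUSG00000030707), the haematopoietic coronin needed for T cell survival and trafficking, measured 5628, 3646 and 6147 FPKM under cKO against 5249, 6638 and 4724 under WT. The low cKO 2 value set the sign. The log2 difference was -0.13 with an interval from -0.75 to 0.49 (limma, adjusted p = 0.976), but 0.10 with cKO replicate 2 left out, 0.010 with WT replicate 2 left out, 0.029 with equal sums and 0.089 with library quality weights. Lcp1 (ENSMUSG00000021998), the bundling protein L-plastin, measured 1113, 909 and 1158 FPKM under cKO against 930, 1168 and 850 under WT. Its groups overlapped over nearly their whole range, with a log2 difference of 0.11 and an interval from -0.31 to 0.54 (limma, adjusted p = 0.961), and it was 0.016 without WT replicate 3 and 0.25 without WT replicate 2. Lsp1 (ENSMUSG00000018819), a leukocyte filament binder, measured 2460, 1714 and 2307 FPKM under cKO against 1922, 2620 and 1670 under WT. Its highest value was WT 2 and its lowest WT 3, so the WT libraries spanned the cKO ones. The log2 difference was 0.07 with an interval from -0.48 to 0.62 (limma, adjusted p = 0.985), but -0.032 with cKO replicate 1 left out and -0.072 with WT replicate 3 left out.

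Vim (ENSMUSG00000026728) measured 1214, 910 and 1033 FPKM under cKO against 904, 1154 and 644 under WT. WT 3 was the lowest library by far, while WT 2 lay above 2 of the 3 cKO values. Means were 1052 ± 153 against 901 ± 255 FPKM (SD, n = 3 each), which gave on the log2 scale 0.25 with an interval from -0.32 to 0.83 (limma, adjusted p = 0.933). That value rested on WT 3, as it was 0.033 without WT replicate 3, beside 0.15 without cKO replicate 1 and 0.45 without WT replicate 2. Vimentin is also abundant in stromal and myeloid cells, so those markers are given beside it. Of 12 stromal and endothelial markers, 6 were listed at 0 in all 6 libraries, among them Col3a1, Pdgfra, Pdgfrb, Dcn and Lum, and the list's summed FPKM, carried by Pecam1 (44.9 to 65.2 FPKM), lay between 45.3 and 54.4 in cKO and between 52.0 and 66.4 in WT. The 16 myeloid markers summed to 642, 1274 and 466 FPKM under cKO against 535, 516 and 442 under WT, and 1 of them, Clec4d, was listed at 0 throughout. Of the 13 tested, 12 had a log2 difference above 0, with a median of 0.45. The high sum of cKO 2 came mostly from S100a8 (545 FPKM), Cst3 (293 FPKM) and S100a9 (245 FPKM). Lyz2 (83.2 FPKM), Elane (14.1 FPKM) and Itgam (1.33 FPKM) were also highest there within cKO. Csf1r (3.23 FPKM) and Cybb (22.2 FPKM) were lowest there within cKO, and the other myeloid markers above 0 lay between. Their part in the results was not tested. In sorted but bulk samples, fewer cells of a type and less RNA per cell cannot be told apart.

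**Figure D2:**
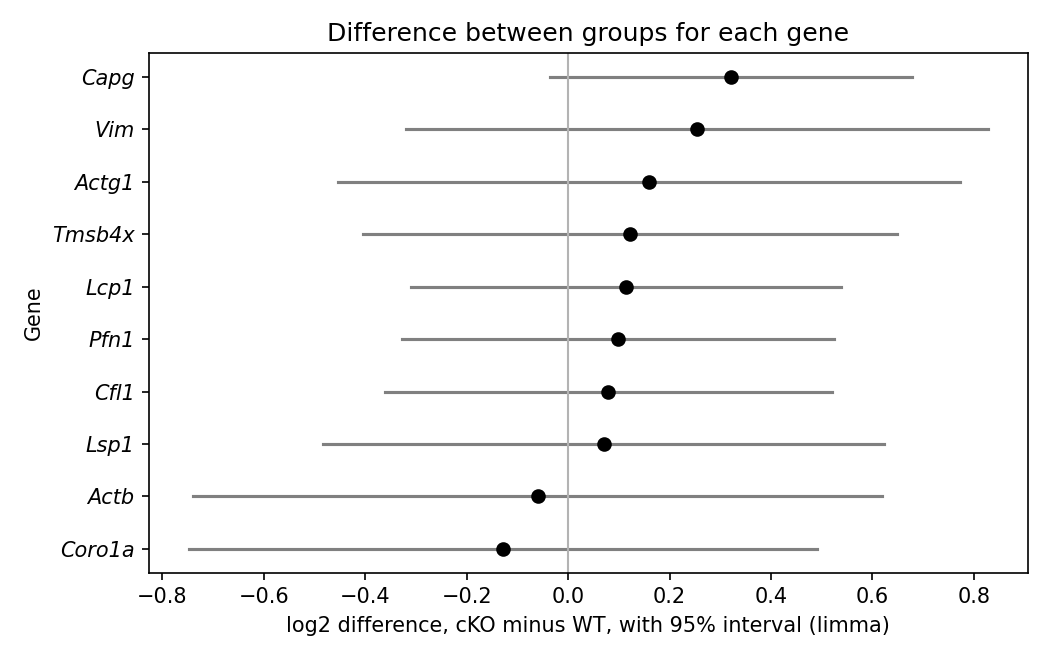
Log2 difference (cKO minus WT) of each of the 10 genes as a point, with its 95% interval from limma as a line. All 10 intervals include 0, from Coro1a at -0.13 to Capg at 0.32.

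In sum over the 10 genes, none passed an adjusted p of 0.05 or an unadjusted p of 0.05, against 3 of 11979 genes tested (0.0250%) and 643 (5.37%, of which 3.59% higher and 1.78% lower in cKO) in limma. The log2 difference was above 0 in 8 of 10, beside 55.0% of all genes tested, and the median was 0.11 beside 0.03 for all genes. With equal sums these medians were 0.26 and 0.17. The median of the 10 genes was 0.02 without cKO replicate 3, 0.04 without WT replicate 3 and 0.20 without cKO replicate 2. Groups did not overlap in 1 of 10 genes, Capg, which was higher in cKO, where 6.96% of all genes were higher without overlap and 3.75% lower. The groups' means differed by 1.01 to 1.25 times. Within a group, the highest and lowest library of 1 gene differed by 1.10 to 1.84 times. In 9 of the 10 genes the ratio of group means was smaller than the highest-to-lowest ratio inside each group. The exception was Capg, at 1.25 against 1.22 in each group. The share among all genes was not computed, so this count does not set the 10 genes apart.

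The variation inside the groups was shared between the genes, and it split them by coding length. In each of the 7 genes with 900 to 2000 coding bases (Actb, Actg1, Coro1a, Lcp1, Lsp1, Capg and Vim), cKO 2 was the lowest cKO library and WT 2 the highest WT library. In each of the 3 genes under 500 coding bases (Tmsb4x with 132, Pfn1 with 420 and Cfl1 with 498), libraries ran from lowest to highest as cKO 1, cKO 2, cKO 3 in one group and as WT 2, WT 1, WT 3 in the other. The orders were noticed in the data and are a description with no test.

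The first order was common among long genes in general. Of all 10077 protein-coding genes tested, 23.0% had cKO 2 lowest and WT 2 highest. The share was larger at greater coding length, from 3.29% under 500 bases to 12.4% from 500 to 1000 bases, 26.2% from 1000 to 2000 bases and 35.4% above that. Among 63 genes of 900 to 2000 coding bases with a mean of at least 500 FPKM, a class that includes the 7, it was 81.0%. As deviations from their own 6-library mean (log2), these genes had medians of 0.11, -0.28 and 0.19 under cKO against -0.08, 0.20 and -0.17 under WT. The medians of the 7 were 0.24, -0.28 and 0.21 under cKO against -0.08, 0.25 and -0.31 under WT, with the same signs and a larger excess in cKO 1 and deficit in WT 3. Single genes departed from this, as Capg lay at its own mean in cKO 2 and at -0.06 in WT 2, and Vim at -0.07 in cKO 2 and -0.57 in WT 3.

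The 3 short genes followed their class less closely. Among 81 genes under 500 coding bases with a mean of at least 500 FPKM, including the 3, the exact order of Tmsb4x, Pfn1 and Cfl1 was seen in 13.6%, beside 2.36% of all protein-coding genes tested. The class had median deviations of -0.52, 0.41 and 0.10 under cKO against -0.04, -0.39 and 0.43 under WT. The 3 genes had medians of -0.13, -0.01 and 0.29 under cKO against -0.09, -0.16 and 0.10 under WT. Within cKO the 3 genes were thus highest in cKO 3 and the class in cKO 2, and within WT both were highest in WT 3. The medians of the 3 genes spanned a smaller range than those of the class. The cause of these orders was not tested.

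**Figure D3:**
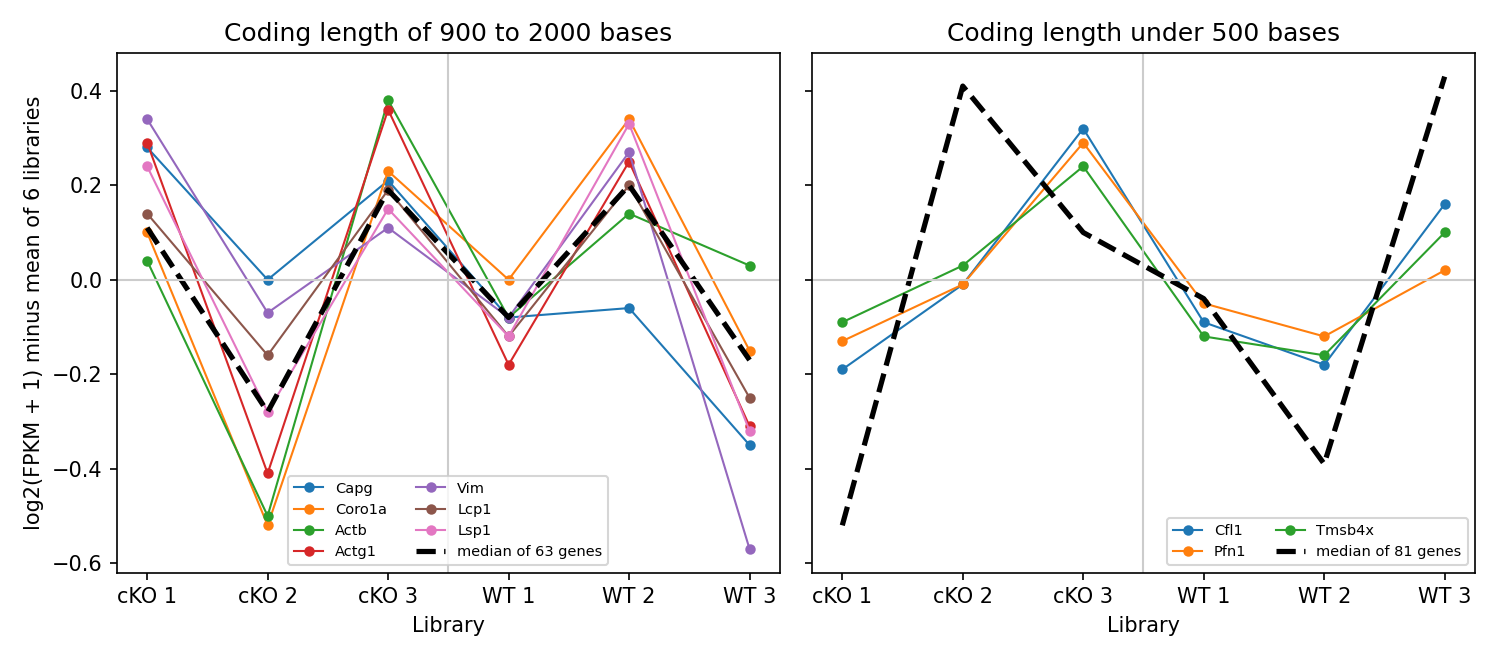
Log2(FPKM + 1) of each gene minus its mean over the 6 libraries, for genes of 900 to 2000 coding bases on the left and under 500 on the right. Coloured lines join the values of 1 gene only to guide the eye, and the dashed line is the median of all genes of that length class with a mean of at least 500 FPKM (63 and 81 genes), which lies at -0.28 in cKO 2 on the left and at 0.41 there on the right.

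Removing each library's trend over coding length narrowed the median width of the 95% interval of the 10 genes from 1.08 to 0.97 (log2), brought their median log2 difference to -0.03, and again no gene passed. The interval of Lcp1 narrowed from 0.85 to 0.64 and that of Vim from 1.15 to 0.92, while that of Tmsb4x widened from 1.05 to 1.74 and that of Pfn1 from 0.85 to 0.93.

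The wider machinery of the cytoskeleton was read from 6 lists with 133 genes, of which 108 were tested. None of the 108 passed over all genes (limma, Benjamini-Hochberg). At an unadjusted p under 0.05 there were 5 higher and 0 lower, 4.63% beside 5.37% of all genes (3.59% higher and 1.78% lower). The groups did not overlap in 9 higher (8.33%, beside 6.96%) and 1 lower (0.926%, beside 3.75%). The median log2 difference was 0.06, beside 0.03 for all genes. List medians near 0 moved with scaling, as that of crosslinkers and membrane linkers was -0.01, 0.13 with equal sums and -0.09 after quantile normalization, and that of nucleation and branching was 0.08, 0.24 and -0.01.

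Among genes of monomer binding, capping and turnover, 17 of 28 tested lay above 0, with a median of 0.09 and 2 at an unadjusted p under 0.05. The smaller p belonged to Gsn, gelsolin, which severs and caps filaments and is a relative of CapG. Gsn measured 37.9, 38.9 and 47.2 FPKM under cKO against 27.1, 27.2 and 20.8 under WT, a log2 difference of 0.70 with a standard error of 0.168 (limma, adjusted p = 0.846, unadjusted p = 0.00463). All 3 cKO values exceeded all 3 WT values, and the log2 difference lay between 0.58 and 0.86 over 18 alternatives, in none of which it passed. Ssh1, a phosphatase that activates cofilin, was the other, at 12.5 ± 0.782 against 8.94 ± 1.21 FPKM (SD, n = 3 each) and a log2 difference of 0.45 (limma, adjusted p = 0.915). Scin, scinderin of the gelsolin family, stood at 8.73 ± 2.18 against 6.13 ± 1.86 FPKM with overlapping groups. Cotl1, an actin-binding protein of the cofilin fold, measured 268, 905 and 417 FPKM under cKO against 289, 239 and 328 under WT, so that its log2 difference of 0.72 came with a standard error of 0.423 and 1 high library. It was 0.24 without cKO replicate 2, that library, and 1.12 without cKO replicate 1.

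Genes of filament nucleation and branching had 17 of 27 tested above 0 and a median of 0.08. Brk1, a small subunit of the WAVE complex, measured 234, 272 and 273 FPKM under cKO against 219, 199 and 215 under WT, or 0.30 on the log2 scale (limma, adjusted p = 0.925), which was 0.012 after the coding-length correction. Arpc1b, a subunit of the branching complex found in blood cells, stood at 1650 ± 142 against 1400 ± 77.7 FPKM (SD, n = 3 each) without overlap, and Arpc3 of the same complex at 240.0 ± 61.5 against 181 ± 16.2 FPKM with overlap. Diaph1, a formin that elongates unbranched filaments, had a log2 difference of 0.38 (limma, adjusted p = 0.925) with overlap. Without cKO replicate 2 the log2 differences of Arpc3 (0.38) and Diaph1 were 0.18 and 0.24.

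Crosslinkers and membrane linkers had 10 of 24 tested above 0, a median of -0.01 and none at an unadjusted p under 0.05. Actn1, alpha-actinin, stood at 14.2 ± 4.98 against 20.5 ± 4.96 FPKM (SD, n = 3 each) and Ezr, the linker ezrin, at 249 ± 46.3 against 301 ± 37.4 FPKM, with overlap in both. Their log2 differences of -0.53 and -0.28 were -0.26 and -0.15 without cKO replicate 2. Ahnak, a giant scaffold protein, had a log2 difference of 0.18 with overlap. It was 0.11 without WT replicate 2 and 0.28 without WT replicate 3. After the coding-length correction it was 0.011, but the transcript taken for its length was short, with 67 to 140 fragments behind its values. That corrected value therefore does not apply to the full-length message. Dbnl, an adaptor between receptors and actin, did not overlap, at 239 ± 11.2 against 218 ± 13.0 FPKM, and its log2 difference of 0.13 was 0.017 after quantile normalization and 0.084 without WT replicate 3. Genes of myosin and tropomyosin had 12 of 17 above 0 and a median of 0.06. Myo5a, a vesicle motor, measured 6.99, 3.93 and 6.53 FPKM under cKO and between 8.17 and 9.06 FPKM under WT, without overlap and with a log2 difference of -0.55 (limma, adjusted p = 0.925) that was -0.33 without cKO replicate 2. Myo1f (0.41) and the calponin Cnn3 (0.40) had log2 differences with overlap, which were 0.19 for Myo1f without cKO replicate 1 and, for Cnn3, 0.18 without WT replicate 3 and 0.62 without WT replicate 2. Myl6, a myosin light chain, stood at 934 ± 154 against 729 ± 118 FPKM with overlap, and its log2 difference of 0.36 was 0.19 after the coding-length correction.

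The serum response factor axis had 7 of 8 tested above 0 and a median of 0.24, which was 0.04 with a minimum mean of 5 FPKM and 0.12 without cKO replicate 2. Elk3, a partner of serum response factor, stood at 20.5 ± 2.03 against 16.4 ± 0.444 FPKM (SD, n = 3 each) and Fhl2, a LIM protein of this pathway, at 2.71 ± 0.472 against 1.43 ± 0.502 FPKM, where Fhl2 values rested on 5 to 19 fragments. Neither overlapped and neither passed (limma, adjusted p = 0.925 for each). Fhl3 (0.28) and Mrtfb (0.31), a coactivator of serum response factor, had log2 differences with overlap, and that of Mrtfb ran from 0.036 without WT replicate 1 to 0.57 without WT replicate 3. With a pseudocount of 5 FPKM, Fhl2 had 0.26 in place of 0.63 and Fhl3 0.12. Of intermediate filaments and lamins other than Vim, 4 of 11 were tested, and 3 of the 4 lay above 0. Their median of 0.29 was 0.04 with no filter on low values or with a minimum mean of 5 FPKM, and 0.17 without WT replicate 3. Lmnb1, a lamin of the nuclear envelope, measured 43.4, 28.1 and 39.5 FPKM under cKO against 28.7, 25.7 and 20.4 under WT, a log2 difference of 0.54 with overlap (limma, adjusted p = 0.915, unadjusted p = 0.0413). Lmna, the A-type lamin, was close between groups at 10.6 ± 2.36 against 10.7 ± 2.96 FPKM, as was Lmnb2 at 6.82 ± 1.79 against 6.54 ± 1.34 FPKM. Krt18, a keratin, lay near the detection limit at 2.20 ± 0.645 against 0.517 ± 0.437 FPKM, and single values rested on 1 to 19 fragments. Its log2 difference was 1.09, or 2.09 with a pseudocount of 0.1 FPKM and 0.38 with one of 5 FPKM.

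**Figure D4:**
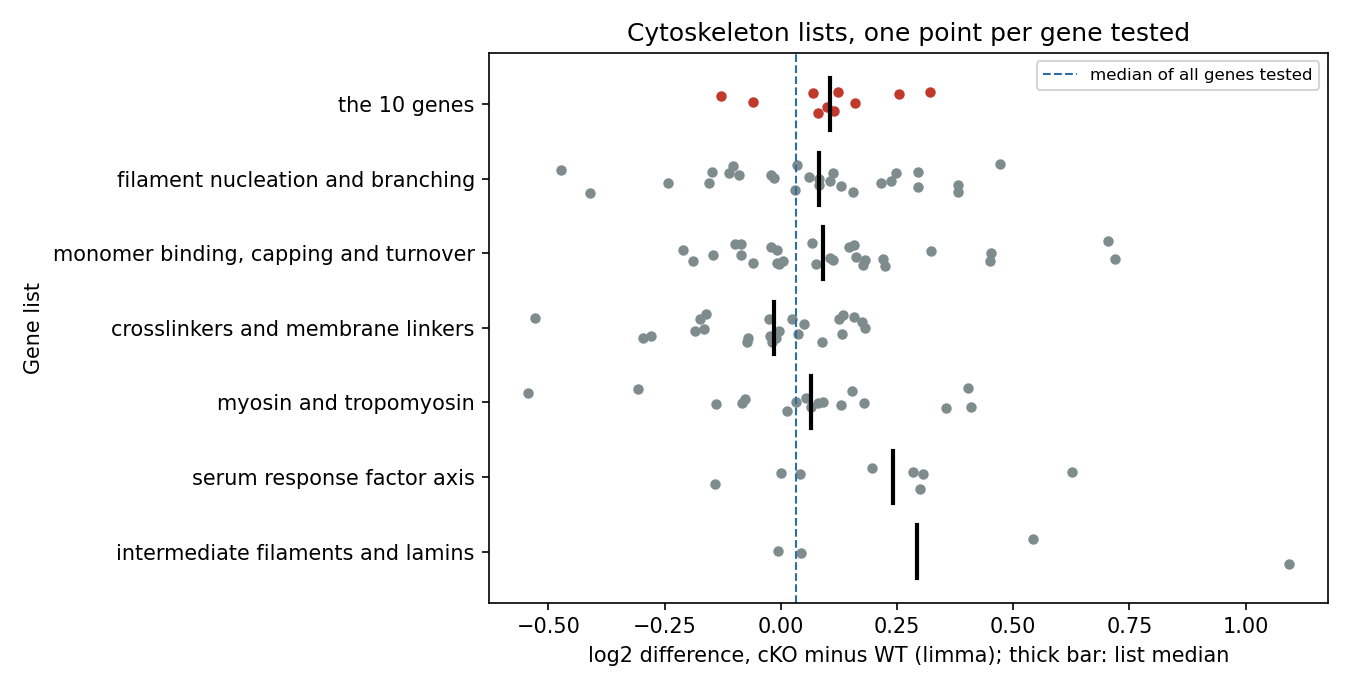
Log2 difference (cKO minus WT) of each tested gene of the 6 cytoskeleton lists and of the 10 genes, with a thick bar at each list's median and a dashed line at the median of all genes tested (0.03). List medians run from -0.01 for crosslinkers and membrane linkers to 0.29 for the 4 genes of intermediate filaments and lamins, a value that was 0.04 with a minimum mean of 5 FPKM.

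The genes most like Capg and Vim over the 6 libraries were found by the root mean square difference of log2(FPKM + 1), each gene taken relative to its own mean, among 4910 genes that have a symbol and average 20 FPKM or more. For Capg these were Traf2, a signalling adaptor of tumour necrosis factor receptors (0.0316), Irf8, a transcription factor (0.0447), and Asxl2, a chromatin protein (0.0568). For Vim they were Aplp2, an amyloid precursor-like membrane protein (0.0538), Lcp2, the T cell receptor adaptor SLP-76 (0.0764), and Ganab, a glucosidase of the endoplasmic reticulum (0.0935). Traf2 measured 81.9, 68.5 and 78.8 FPKM under cKO against 68.0, 67.4 and 53.2 under WT, with the Capg pattern of a low WT 3. With 6 libraries and 4910 genes some close matches are found for any profile.

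Some of these transcripts have near-identical copies elsewhere. In the GENCODE transcript set, 1 other gene row (Gm6180) matched the Cfl1 transcript over at least 200 bases at 95% identity or more, at 76.1 to 118 FPKM, or 5.33% to 6.79% of the Cfl1 value. For Actg1 there were 3 such rows, which summed to 2.66% to 5.63% of the Actg1 value. No such row of the table was found for the other 8 genes. How the authors' counting shared reads between copies is not given in the sources used here. These shares of FPKM therefore do not measure how uncertain the Cfl1 and Actg1 levels are. Copies outside the annotation were not searched.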

How the data were processed

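FPKM values were deposited by the authors as 1 table of 36811 genes by 6 libraries, from cuffnorm per the file name. FastQC, cutadapt and HISAT2, with builds NCBIM37 and mm9, are named without versions in the submitters' processing notes. The labels and notes record neither annotation nor strand setting. Mice with a Bach2 reporter, which the design text speaks of, were not analysed here. Identifiers were matched to symbols for 31840 rows. The test was limma (version 3.58.1, under R 4.3.3) with a variance trend and no block, applied to log2(FPKM + 1) of the 11979 genes averaging 1 FPKM or more, with Benjamini-Hochberg adjustment and a threshold of 0.05. Folds on this scale understate changes of low genes. Coding lengths and transcripts came from GENCODE M21 (GRCm38), so no gene coordinates are given apart from the Actg1 promoter stretch on GRCm38.p6. Of genes tested, 84.1% were protein-coding with a coding length.

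The fragment scale assumed whole fragments on genes with 1 transcript of at least 1000 bases, less 200 bases. It made 85.6% to 87.9% of low values whole within 0.1. FPKM sums ran from 1502822 to 1940807, and the top 4 rows took 32.4% to 46.9%. The procedure was tested on simulated data with known changes.

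The 10 genes and the lists were chosen with earlier results of these data known. A further list is not reported here. Named list genes were the up to 4 with the smallest p in each list. Likeness was computed for Capg and Vim, with the 3 nearest genes named. Tables were handled in Python 3.11.15 (pandas 2.3.3, numpy 2.4.6) and plots drawn in matplotlib 3.10.9.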

Additional observations from a re-analysis of the deposited data

How the results depend on the processing

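Of 18 alternatives, 17 were planned and the coding-length correction was chosen after seeing the data. None of the 10 genes and no gene of the 6 cytoskeleton lists passed in any of them (limma, lowest adjusted p of the 10 genes 0.394), and 165 of 180 values of the 10 genes kept their sign. The 15 that turned, all without passing, were Coro1a with equal sums (0.029), library quality weights (0.089) and without 1 library (up to 0.10, lowest -0.27), Actb after quantile normalization (0.12), with equal sums (0.10), with library quality weights (0.23) and without 1 library (-0.26 to 0.18), Cfl1, Pfn1 and Tmsb4x after the coding-length correction (-0.075, -0.083 and -0.28), and Cfl1 (-0.060 to 0.19), Pfn1 (-0.020 to 0.19) and Lsp1 (-0.072 to 0.25) without 1 library. Without 1 library the turned values were 0.10 and 0.010 for Coro1a, 0.18 for Actb, -0.060 for Cfl1, -0.020 for Pfn1 and -0.032 and -0.072 for Lsp1. Lmna turned with equal sums (0.14) and the coding-length correction (0.0021), and Lmnb2 with library quality weights (-0.011). Without 1 library Lmna ran from -0.17 to 0.19 (turned at 0.063, 0.088 and 0.19) and Lmnb2 from -0.14 to 0.18 (turned at -0.14 and -0.066). The cause was not tested. Of all genes tested, 3 were called, 1 under the replicate block, and 5 to 15 when 1 library was left out (15 without WT replicate 2). Libraries that share a replicate number did not deviate together (correlations of -0.06, -0.18 and -0.02). With deviations taken from each group's own mean, such correlations cannot show whether the numbers mark a pairing. The replicate block changed no call among the 10 genes.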
